A study of Mus musculus with 2 samples.

Results

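The Bcl2 family decides whether a cell opens the mitochondrial route to apoptosis, and 10 of its genes were followed here among the 28692 genes counted in both libraries of the series. The genes were taken by name: the survival members *Bcl2*, *Bcl2l1*, *Mcl1* and *Bcl2a1b*, and the death members *Bax*, *Bak1*, *Bcl2l11*, *Bbc3*, *Pmaip1* and *Bid*. All 10 are listed in the gene tables. The data are droplet single-cell RNA-seq (10X Chromium) of wild type CD1 mouse fetal liver at E13.5, from which TER-119+ red cells were depleted, and hematopoietic stem and progenitor cells (HSPCs) were sorted as Sca-1+ cKit+. The HSPCs were seeded at 1000 cells/well on plates coated with the Notch ligand DL4 (10 µg/mL) and the adhesion molecule VCAM-1 (2.32 µg/mL), a stroma-free system that drives T-cell differentiation. The 2 libraries, FL001 and FL002, carry the same labels, so the culture day of each is not given and each was analysed alone, with no replicate and no p-value. The paper describes cells that were cultured for days on these plates or captured directly after sorting, and a pooling over time points. Which of these each library holds is not given, so the gates may also differ in time in culture. Every interval below is a 95% interval for counting error only.

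In the mitochondrial pathway, the survival proteins hold the effectors *Bax* and *Bak1* in check, and the BH3-only proteins (Bim from *Bcl2l11*, Puma from *Bbc3*, Noxa from *Pmaip1*, and Bid) bind the survival proteins or activate the effectors. Early thymocytes depend on IL-7 signaling, which sustains Bcl2, and on Mcl1. *Bbc3*, *Pmaip1* and *Bax* are known p53 target genes.

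After cells with fewer than 1500 UMIs, fewer than 500 genes or more than 10% mitochondrial UMIs were removed, 1788 cells remained in FL001 and 4100 in FL002, with medians of 7722 and 4752.5 UMIs per cell, and 10 kept barcodes occurred in both. Cells were placed in 5 gates by their UMIs of stage genes. The progenitor gate held cells with at least 2 UMIs of *Lmo2*+*Mef2c* and at most 1 of *Cd3g* (428 cells in FL001 and 724 in FL002), and the early gate held cells with at most 2 of *Cd3g* and at most 1 of *Lmo2*+*Mef2c* (381 and 1134). The Cd3g gate held cells with at least 3 *Cd3g* UMIs and none of *Il2ra* (327 and 873), the Il2ra gate cells with at least 1 *Il2ra* UMI (738 and 1668), and the commitment gate cells with at least 2 UMIs of *Ptcra*+*Lef1*+*Bcl11b* (451 and 501). Gates can share cells. Of the commitment gate, 61.0% in FL001 and 58.1% in FL002 also met the Il2ra gate. Of the Cd3g gate, 51.4% in FL001 and 22.7% in FL002 also met the commitment gate. Of the early gate, 19.7% in FL001 and 24.3% in FL002 also met the Il2ra gate. The summed level of 9 T-lineage markers was 88.5 and 107 CPM (UMIs per 1000000 UMIs of the gate) in the progenitor gate and 1974 and 1886 CPM in the commitment gate, whereas 8 progenitor markers went from 880 and 857 CPM to 236 and 221 CPM; *Bcl11b* is both a T-lineage marker and a gate gene. The T-lineage sum was 1433 and 1299 CPM in the Cd3g gate and 1289 and 1221 CPM in the Il2ra gate, and the progenitor sum 296 and 302 CPM against 316 and 339 CPM, so these markers do not place the Cd3g gate before the Il2ra gate, and a later gate means only one that follows in the list above. Cells with at least 10 UMIs of granule, platelet, globin or *Gzmc* genes made up 34.1% and 18.1% of the progenitor gate, 8.14% and 4.06% of the early gate, and at most 2.30% of each later gate. Other marker lists differed between the progenitor and commitment gates as well: 9 granulocyte and monocyte markers summed to 2466 and 1628 CPM against 31.1 and 84.5 CPM, and 8 innate lymphoid and NK markers to 201 and 179 CPM against 507 and 508 CPM. Of the first list 1 marker in FL001 and 2 in FL002 were at 0 in the commitment gate, and of the second 2 in each. The early gate had granulocyte and monocyte markers at 3704 and 1114 CPM, above the progenitor gate in FL001, so it also took in cells of other lineages.

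*Bcl2* was the member whose level differed most along the gates. In FL001 its level was 28.9 CPM in the progenitor gate, 49.5 in the early gate, 131 in the Cd3g gate, 137 in the Il2ra gate and 182 in the commitment gate. In FL002 the same gates gave 18.8, 39.1, 91.8, 113 and 145 CPM. The order of the gates was therefore the same in both libraries, and only the Cd3g and Il2ra gates of FL001 had overlapping intervals (118 to 145 and 128 to 146 CPM). The commitment gate was 6.29-fold above the progenitor gate in FL001 (5.12 to 7.79) and 7.69-fold above it in FL002 (6.01 to 9.94). The step from the early to the Cd3g gate was 2.64-fold (2.17 to 3.21) and 2.35-fold (1.99 to 2.77), that from the progenitor to the early gate 1.71-fold (1.33 to 2.22) and 2.08-fold (1.60 to 2.71), and that from the Il2ra to the commitment gate 1.33-fold (1.20 to 1.47) and 1.28-fold (1.13 to 1.45).

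The difference between the progenitor and commitment gates was also seen among cells of like depth and without the cells of other lineages. When only cells of 3000 to 6000 UMIs were compared, *Bcl2* stood at 25.7 CPM in the progenitor gate and 272 CPM in the commitment gate of FL001, a ratio of 10.6 (6.04 to 20.3), and at 29.3 and 182 CPM in FL002, a ratio of 6.21 (4.49 to 8.75). Without the cells of other lineages the commitment to progenitor ratios over all depths were 6.54 and 7.86. The early to progenitor ratio varied with depth. Among cells of 3000 to 6000 UMIs it was 4.80 (2.57 to 9.63) in FL001 and 1.49 (1.04 to 2.15) in FL002. Among cells of 6000 to 12000 UMIs it was 1.32 (0.894 to 1.95) and 1.73 (1.10 to 2.79). With every cell thinned to 1500 UMIs, the share of cells with a *Bcl2* UMI was 3.97% (2.33 to 6.28) in the progenitor gate and 27.9% (23.8 to 32.3) in the commitment gate of FL001, and 2.62% (1.59 to 4.07) and 21.2% (17.7 to 25.0) in FL002; the unthinned shares were 18.0% and 67.8%, and 9.94% and 43.9%. Thinning with another seed gave 6.31% and 3.45% in the progenitor gates and 25.7% and 21% in the commitment gates. Cells rich in neutrophil granule transcripts, where little *Bcl2* would be looked for, gave 3.55% and 2.31% after thinning, and free RNA at 5% of a cell's UMIs would give 0.544% and 0.486%. The barcodes that hold mostly free RNA (1 to 100 UMIs) had *Bcl2* at 72.8 and 64.9 CPM. When each cell was kept in 1 gate only, the last it met, *Bcl2* was 28.6, 37.4, 102, 108 and 182 CPM in FL001 and 19.1, 30.0, 80.7, 106 and 145 CPM in FL002, so Il2ra cells outside the commitment gate lay below it.

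The other survival members did not share this pattern. *Mcl1*, which encodes a short-lived survival protein needed by progenitors and lymphocytes alike, stayed between 50.2 and 60.5 CPM across the gates of FL001 and between 51.3 and 68.7 CPM in FL002, and the commitment gate was 0.94 times the progenitor gate in both libraries (0.773 to 1.14 and 0.768 to 1.15). Over the alternatives the FL001 ratio went as low as 0.694. In FL002 the early gate was 0.747 times the progenitor gate (0.634 to 0.880), the Cd3g gate 0.754 (0.631 to 0.899) and the Il2ra gate 0.850 (0.734 to 0.986). The intervals of these gates in FL001 included 1. *Bcl2l1*, which encodes Bcl-xL, ranged from 16.3 to 25.1 CPM in FL001 and from 16.9 to 20.4 CPM in FL002. Its commitment gate was 0.691 times the progenitor gate in FL001 (0.493 to 0.963) and 1.04 times in FL002 (0.711 to 1.51); with cells thinned to 1500 UMIs these were 0.599 and 0.642. *Bcl2a1b* gave 2 UMIs in all kept cells of FL001 and 10 in FL002. Its near-identical copies *Bcl2a1a* (2 and 5 UMIs) and *Bcl2a1d* (6 and 5 UMIs) were as rare, and reads shared between the copies may not have been counted.

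**Figure D1:**
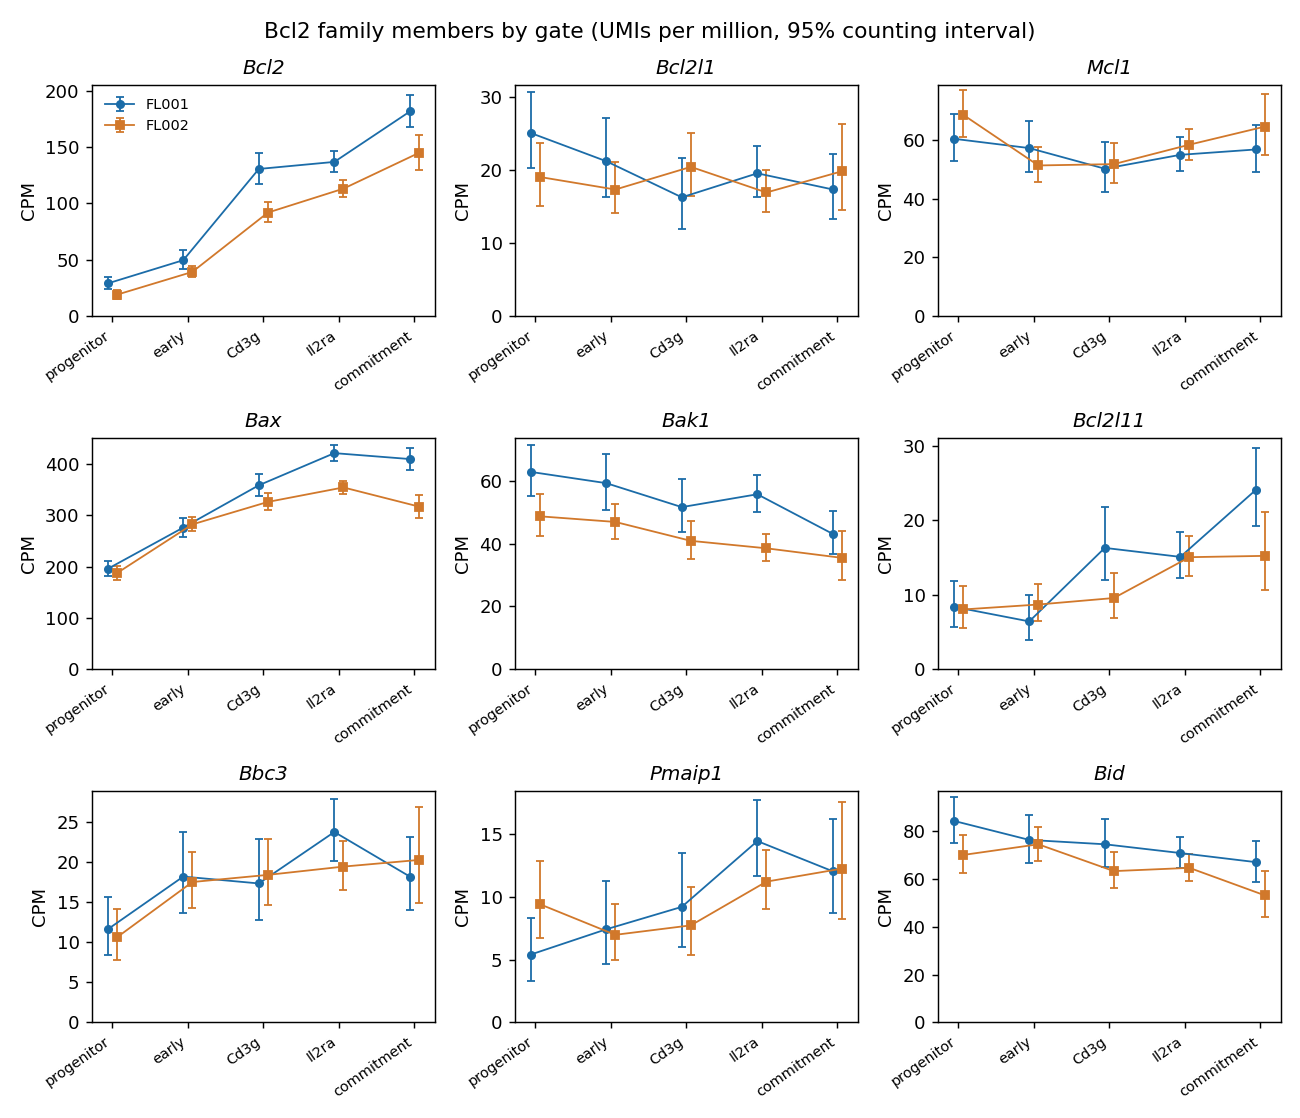
Level of 9 Bcl2 family members in CPM (linear axes from 0) in each of the 5 gates, for FL001 (circles) and FL002 (squares), with 95% Poisson intervals. *Bcl2* goes from 28.9 to 182 CPM and from 18.8 to 145 CPM between the progenitor and commitment gates, *Bax* is higher in every later gate than in the progenitor gate, and *Mcl1* stays between 50.2 and 68.7 CPM; *Bcl2a1b*, near 0, is left out.

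Of the effectors, *Bax* was higher in each later gate, and *Bak1* was lower in the commitment gate. *Bax* was the most counted member, at 196, 276, 359, 421 and 410 CPM from the progenitor to the commitment gate of FL001 and 187, 282, 326, 355 and 317 CPM in FL002. Its level was highest in the Il2ra gate of both libraries, and the commitment gate was 2.09-fold (1.92 to 2.29) and 1.69-fold (1.53 to 1.88) above the progenitor gate. *Bak1* went from 62.9 to 43.1 CPM in FL001 and from 48.7 to 35.5 CPM in FL002, ratios of 0.685 (0.555 to 0.844) and 0.728 (0.558 to 0.943). The effector genes thus differed in opposite directions between these 2 gates in both libraries, although with cells thinned to 1500 UMIs the *Bak1* ratio in FL001 was 0.949. Against the progenitor gate *Bak1* was not resolved in the early gate, at 0.943 (0.771 to 1.15) and 0.963 (0.801 to 1.16). The same held in the Cd3g gate, at 0.821 (0.663 to 1.01) and 0.839 (0.684 to 1.03). In the Il2ra gate it was 0.887 (0.750 to 1.05) in FL001 and 0.791 (0.662 to 0.946) in FL002.

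The promoters of *Bcl2* and *Bax*, the survival and the death member with the most UMIs in the commitment gate, are shown because both genes stood higher in each later gate. Windows were read for 9 of the 10 members, and *Pmaip1* was the member not searched. They are RefSeq sequences on GRCm38.p6, 250 bases before to 50 bases after the gene start, read on the gene's strand. The first lies at chr1:106714241-106714540 on the minus strand, the second at chr7:45466849-45467148 on the minus strand. Capitals mark the match to the p53 half-site consensus, searched on both strands.
Bcl2: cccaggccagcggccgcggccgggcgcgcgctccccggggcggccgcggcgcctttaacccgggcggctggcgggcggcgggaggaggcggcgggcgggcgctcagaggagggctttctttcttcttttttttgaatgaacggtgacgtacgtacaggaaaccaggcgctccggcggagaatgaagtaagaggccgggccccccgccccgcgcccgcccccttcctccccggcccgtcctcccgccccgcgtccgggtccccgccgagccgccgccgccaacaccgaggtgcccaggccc
Bax: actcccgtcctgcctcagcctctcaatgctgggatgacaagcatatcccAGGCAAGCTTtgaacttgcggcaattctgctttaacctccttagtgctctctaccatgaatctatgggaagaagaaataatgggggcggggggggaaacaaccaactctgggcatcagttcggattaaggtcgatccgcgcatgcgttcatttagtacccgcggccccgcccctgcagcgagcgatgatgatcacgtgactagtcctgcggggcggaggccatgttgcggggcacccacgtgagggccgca
The *Bcl2* window has 76% G and C and holds no p53 half-site, nor the letters of an E-box (CACCTG), STAT (TTCNNNGAA), Foxo (GTAAACA), Runx (TGTGGT) or TCF (CTTTGAT) site. The *Bax* window has 57.3% G and C and holds 1 p53 half-site, as do 8.36% of 32851 mouse promoter windows; it holds none of the other letters, which are in 20.2%, 8.3%, 3.65%, 16.8% and 3.73% of windows in the order given. Of the other members, no window held the p53 half-site, those of *Bbc3* included, whereas a Foxo match was found in a window of *Bcl2l11* and in one of *Bbc3*, E-box matches in windows of *Bbc3* and a Runx match in that of *Bak1*. These matches describe the letters only, and the data hold no measure of binding.

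The BH3-only members were scarcer, apart from *Bid*. *Bcl2l11*, whose product Bim removes thymocytes starved of cytokine, was at 8.37, 6.40, 16.3, 15.1 and 24.1 CPM in FL001 and at 8.0, 8.67, 9.54, 15 and 15.2 CPM in FL002, and the commitment gate was 2.88-fold (1.89 to 4.49) and 1.90-fold (1.16 to 3.13) above the progenitor gate. With each cell in 1 gate only, the Il2ra gate of FL001 held 10.3 CPM of *Bcl2l11* against 24.1 CPM in the commitment gate, a step larger than the counting intervals (7.50 to 13.9 and 19.2 to 29.7), while in FL002 these were 14.8 and 15.2 CPM. *Bbc3* was at 11.6 and 10.6 CPM in the progenitor gate, 18.2 and 17.5 CPM in the early gate, and 18.2 and 20.3 CPM in the commitment gate, which was 1.57-fold (1.05 to 2.36) and 1.91-fold (1.25 to 2.94) above the progenitor gate. Without the cells of other lineages the *Bbc3* ratio in FL001 was 1.25.

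*Pmaip1* was at 5.40, 7.41, 9.20, 14.4 and 12 CPM in FL001 and at 9.41, 6.97, 7.72, 11.2 and 12.2 CPM in FL002. The commitment to progenitor ratio was 2.23 (1.28 to 4.0) in FL001 and 1.30 (0.778 to 2.15) in FL002, and these intervals, from 20 to 43 UMIs per gate, overlap. Barcodes with 1 to 100 UMIs carried *Pmaip1* at 27.6 and 17.8 CPM and *Bbc3* at 25.4 and 27.6 CPM, above every gate. *Mcl1*, at 62.8 and 73.8 CPM, and *Bid*, at 117 and 85.4 CPM, were above every gate in these barcodes as well. *Bax*, at 291 and 324 CPM there, was above the progenitor and early gates of both libraries and the commitment gate of FL002. With free RNA subtracted at 5% of a cell's UMIs, the commitment to progenitor ratio was 2.65 and 1.33 for *Pmaip1* and 1.64 and 2.05 for *Bbc3*; larger shares of free RNA were not tested. *Bid*, which links death receptors to mitochondria once cleaved, went from 84.5 to 67.1 CPM in FL001 and from 70.1 to 53.2 CPM in FL002. Cells with granule transcripts had 107 and 90.8 CPM of *Bid*, and without the cells of other lineages its commitment to progenitor ratio in FL001 was 0.963 in place of 0.795, and with thinned cells it was 1.17, so no direction is read for *Bid* in that library. In FL002 the ratio was 0.759 (0.611 to 0.937), and over the alternatives it lay between 0.662 and 0.971, the latter outside this interval.

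Read against all genes, more members were called higher in the late gates than the background share, and none was called lower. A gene was called where the ratio of CPM was at least 1.5 in the same direction in both libraries, among genes with at least 10 CPM in either gate of both. In the commitment gate against the progenitor gate 4 of 9 members tested were called higher (*Bcl2*, *Bcl2l11*, *Bbc3* and *Bax*) and 0 lower. Of all 7631 genes tested, 9.83% were called higher and 9.26% lower. *Bcl2l11* and *Pmaip1* lay below 10 CPM in the progenitor gate of both libraries, so neither could have been called lower here or in the Il2ra gate. The members and gates were chosen with earlier results of these data known, so these counts are a description. Over both libraries together the median log2 ratio of the 9 members was 0.51, beside -0.05 and -0.01 for all genes in the 2 libraries. *Bcl2l11* and *Pmaip1* entered this median only because they passed the minimum in the commitment gate. In the early and Cd3g gates, where these were not tested, the median of the 7 members tested was 0.02 and -0.02. No shift of the family as a whole is therefore read from the 0.51. In the Il2ra gate the same 4 of 9 were called, against 7.26% higher and 7.21% lower of all genes. In the Cd3g gate *Bcl2* and *Bax* were called of 7 tested, against 6.99% higher and 7.86% lower, and in the early gate *Bcl2* and *Bbc3* were called of 7 tested, against 3.58% higher and 3.77% lower. With each cell in 1 gate only, 0 members were called in the early gate. *Bcl2*, *Bax* and *Bcl2l11* were called in the commitment gate under each alternative choice of cells, whereas *Bbc3* was not called there with at least 3000 UMIs, with at most 5% mitochondrial UMIs, with each cell in 1 gate or without other lineages. *Bcl2l11* was not called in the Il2ra gate with each cell in 1 gate.

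The survival pool differed between gates more in its composition than in its size relative to the death pool. UMIs of the 4 survival members were divided by those of the 6 death members in each gate. The capture of a transcript differs between genes, so this ratio is read between gates and not against 1. It was 0.311, 0.288, 0.373, 0.352 and 0.445 from the progenitor to the commitment gate in FL001, and 0.322, 0.248, 0.352, 0.375 and 0.506 in FL002. The early gate had the lowest ratio and the commitment gate the highest in both libraries. Without *Mcl1* in the sum the progenitor gate was the lowest, at 0.147 against 0.159 in the early gate of FL001 and 0.116 against 0.131 in FL002, and in FL001 it was also the lowest without *Bax* (0.664 against 0.763) and with equal weight per cell (0.316 against 0.354). The commitment gate was 1.43-fold above the progenitor gate in FL001 (1.25 to 1.64) and 1.57-fold in FL002 (1.35 to 1.82), far less than the 6.29-fold and 7.69-fold of *Bcl2* alone. The early gate was 0.926 times the progenitor gate in FL001 (0.788 to 1.09) and 0.771 times in FL002 (0.671 to 0.886). With each cell in 1 gate only, the survival to death ratio was 0.316, 0.281, 0.327, 0.299 and 0.445 in FL001. In FL002 it was 0.318, 0.242, 0.308, 0.357 and 0.506. The Il2ra gate of FL001 and the Cd3g gate of FL002 then lay below the progenitor gate, with overlapping intervals.

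In the progenitor gate *Mcl1* gave 52.7% of the survival UMIs in FL001 and 63.9% in FL002, and *Bcl2* gave 25.2% and 17.5%. In the commitment gate these places were exchanged, with *Bcl2* at 71.0% and 63.2% and *Mcl1* at 22.2% and 28.2%. Among the death members *Bax* gave 53.1% of the UMIs in the progenitor gate and 71.4% in the commitment gate of FL001, and 56.0% and 69.9% in FL002, while *Bid* gave 22.9% and 11.7%, and 21% and 11.7%. *Bcl2* and *Bax*, which both stand higher in the later gates, thus enter the ratio on opposite sides: without *Bax* in the sum, the ratio in the commitment gate was 2.34-fold and 2.30-fold that of the progenitor gate. The UMIs of *Bcl2* over those of *Bcl2l11* were 3.45 (2.30 to 5.33) in the progenitor gate and 7.55 (6.02 to 9.56) in the commitment gate of FL001, and 2.35 (1.56 to 3.63) and 9.53 (6.75 to 13.8) in FL002. The early, Cd3g and Il2ra gates between them gave 7.74, 8.02 and 9.08 in FL001 and 4.51, 9.62 and 7.52 in FL002. The commitment gate was thus not the highest in either library, but its interval overlapped that of the highest gate. Those were 7.36 to 11.3 for the Il2ra gate of FL001 and 6.99 to 13.6 for the Cd3g gate of FL002, so no order is read between them.

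**Figure D2:**
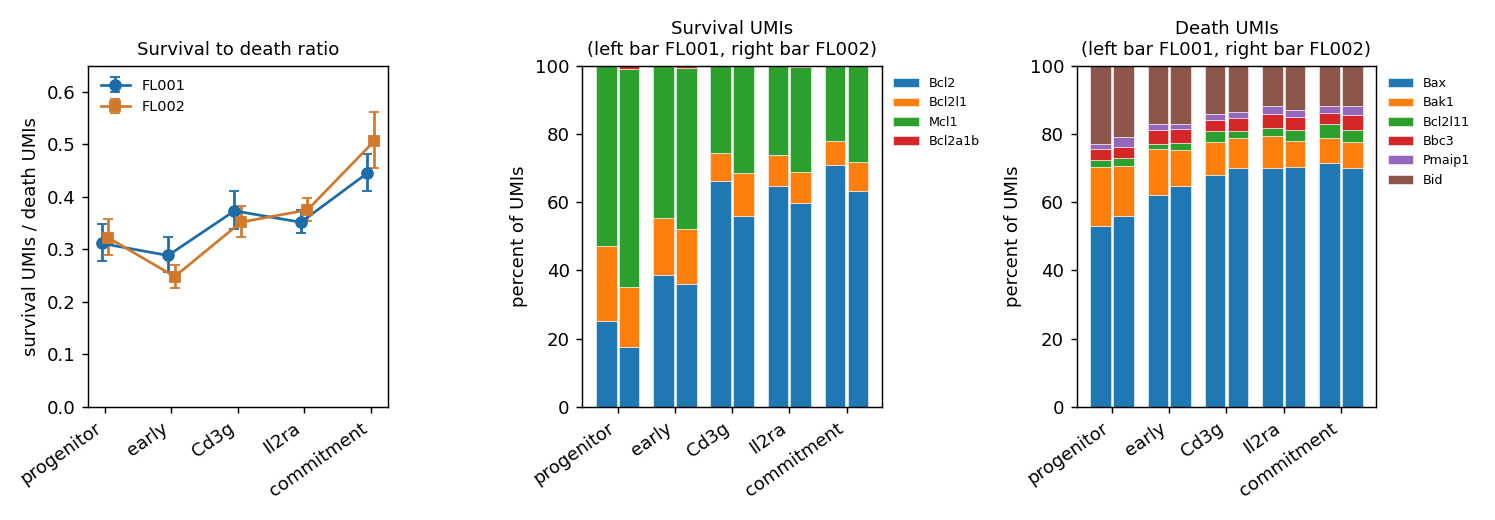
Left, UMIs of the survival members divided by UMIs of the death members in each gate (linear axis from 0) with 95% intervals, for FL001 (circles) and FL002 (squares). Middle and right, the percent of survival and of death UMIs that each gene gives, with FL001 as the left bar of each pair; *Bcl2* goes from 25.2% and 17.5% of survival UMIs in the progenitor gate to 71.0% and 63.2% in the commitment gate.

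The relation of *Bcl2* to *Il7r*, the receptor chain for IL-7, was read inside each gate. *Il7r* itself was at 12.7 and 12 CPM in the progenitor gate and 50.9 and 43.5 CPM in the commitment gate. In the Cd3g gate, 76 cells of FL001 with an *Il7r* UMI had *Bcl2* at 175 CPM against 116 CPM in 251 cells without, a ratio of 1.51 (1.20 to 1.88), and in FL002 93 cells had 117 CPM against 88.6 CPM in 780 cells, a ratio of 1.32 (0.981 to 1.75). In the Il2ra gate the ratios were 1.34 (1.15 to 1.55) and 1.22 (1.0 to 1.48).

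In the commitment gate, where *Il7r* and *Bcl2* are both at their highest, no difference in *Bcl2* was resolved between the cells with and without *Il7r*. The ratios there were 1.07 (0.906 to 1.26) and 0.956 (0.717 to 1.26). The early gate gave 1.60 (0.917 to 2.62) and 2.35 (1.49 to 3.57), and the progenitor gate 1.77 (0.972 to 3.04) and 1.49 (0.530 to 3.40), there with only 16 and 6 *Bcl2* UMIs in the *Il7r* cells. The ratio lay above 1 in both libraries in each gate but the commitment gate. The difference of the ratio between gates was not tested. After thinning to 1500 UMIs, a *Bcl2* UMI was found in 18.4% of *Il7r* cells and 20.7% of the others in the Cd3g gate of FL001, against the order of the CPM, and in 17.2% and 14.1% in FL002, so no order is read from these shares. The *Il7r* cells of this gate were slightly deeper, with medians of 8214.5 and 7847 UMIs in FL001 and 4751 and 4320 in FL002. In the commitment gate the *Il7r* cells were deeper too, with medians of 7636 and 6612 UMIs in FL001 and 5152 and 4092.5 in FL002. Cells of that gate above its median depth had 0.515 and 0.681 times the *Bcl2* CPM of the rest. The *Il7r* ratio among cells of like depth was not tested. Cells without an *Il7r* UMI can still hold the transcript, since few molecules of a cell are captured. When the *Il7r* cells were picked after thinning to 1500 UMIs, the ratio in the Cd3g gate was 2.19 and 2.25, and that in the commitment gate of FL001 was 1.46. In the commitment gate of FL002 the ratio ran from 0.476 to 1.20 over the alternatives.

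By the rule of 1.5-fold in both libraries, *Bcl2* was called higher in *Il7r* cells of the early gate, where 4% of all genes were called. *Bcl2l11* was called higher in those of the progenitor gate, where 4.05% were called, with 6 and 4 UMIs. Its ratios were 2.42 (0.812 to 6.04) and 2.45 (0.628 to 6.96). In the cells without *Il7r* it was at 7.42 and 7.44 CPM, below the minimum, so it could not have been called lower. *Bcl2l1* was called lower in *Il7r* cells of the early gate, where 3.69% of all genes were called, at 0.375 (0.0444 to 1.41) and 0.585 (0.119 to 1.76) times, from 2 and 3 UMIs in the *Il7r* cells. In the *Il7r* cells of FL001 *Bcl2l1* was at 8.38 CPM, below the minimum, so it could not have been called higher. With each cell in 1 gate only, the *Bcl2* ratio in the early gate was 1.06 in FL001 and 1.62 in FL002, and *Bcl2* was not called there. No member was called higher in the Cd3g gate (1.39% of genes), the Il2ra gate (0.764%) or the commitment gate (0.635%). The survival to death ratio of the *Il7r* cells was 1.36 times that of the others in the Cd3g gate of FL001 (1.09 to 1.69) and 1.19 times in FL002 (0.918 to 1.54). It was 0.993 (0.841 to 1.17) and 0.986 (0.751 to 1.29) times in the commitment gate.

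Within a gate, *Bcl2* also went with how many UMIs a cell gave. Cells above the median depth of their gate had 0.311 times the *Bcl2* CPM of the others in the Cd3g gate of FL001 (0.251 to 0.383) and 0.413 times in FL002 (0.338 to 0.504). The Il2ra gate gave 0.413 (0.361 to 0.473) and 0.465 (0.409 to 0.530), the early gate 0.334 (0.237 to 0.469) and 0.294 (0.222 to 0.386), and the commitment gate 0.515 (0.440 to 0.604) and 0.681 (0.546 to 0.851). For *Mcl1* the difference was not resolved, at 0.849 in the Il2ra gate of both libraries (0.679 to 1.07 and 0.703 to 1.03). *Bax* was lower in deeper cells by less, at 0.772 (0.713 to 0.836) and 0.883 (0.819 to 0.954) in the Il2ra gate, and *Bid* was higher in the deeper cells of the Cd3g gate, at 1.40 (1.01 to 1.98) and 1.57 (1.17 to 2.12).

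At least 1.5-fold lower in the deeper cells of both libraries were *Bcl2* and *Bbc3* in the early gate (5.23% of all genes), *Bcl2*, *Bcl2l11*, *Bbc3* and *Pmaip1* in the Cd3g gate (6.85%), *Bcl2* and *Bcl2l11* in the Il2ra gate (5.58%), and *Bbc3* alone in the progenitor gate (3.57%) and the commitment gate (7.15%). *Bbc3* in the progenitor gate and *Pmaip1* in the Cd3g gate lay below 10 CPM in the deeper cells of both libraries, so neither could have been called higher there. The same holds in the Cd3g gate for *Bbc3*, at 8.92 CPM in the deeper cells of FL001, and *Bcl2l11*, at 8.12 CPM in those of FL002. A call needs the minimum in both libraries. A cell that holds less RNA and a cell whose RNA was captured less well cannot be told apart here.

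Cells with at least 2 UMIs of the cell cycle genes *Mki67*+*Top2a* were deeper, with medians of 10795.5 against 5683 UMIs in the Il2ra gate of FL001 and 6007.5 against 3534.5 in FL002. In each gate but the progenitor gate they had less *Bcl2* than cells with none, at 98.1 against 205 CPM in the Il2ra gate of FL001, a ratio of 0.478 (0.413 to 0.552), and at 88.1 against 141 CPM in FL002, a ratio of 0.627 (0.544 to 0.723). In the progenitor gate *Bcl2* was at 30.8 against 25.2 CPM in FL001, a ratio of 1.22 (0.735 to 2.14), and at 19.8 against 18.0 CPM in FL002, a ratio of 1.10 (0.626 to 2.02). Among the deeper cells of the Il2ra gate the ratio was 0.786 (0.620 to 1.01) and 0.851 (0.683 to 1.07), and among the shallower cells it was 0.564 (0.429 to 0.733) and 1.01 (0.780 to 1.28). In the other gates the interval at like depth lay below 1 for the shallower cells of the Cd3g gate (0.686, 0.468 to 0.986) and of the commitment gate (0.720, 0.510 to 0.998) of FL001 and for the deeper cells of the Cd3g gate of FL002 (0.654, 0.466 to 0.927).

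**Figure D3:**
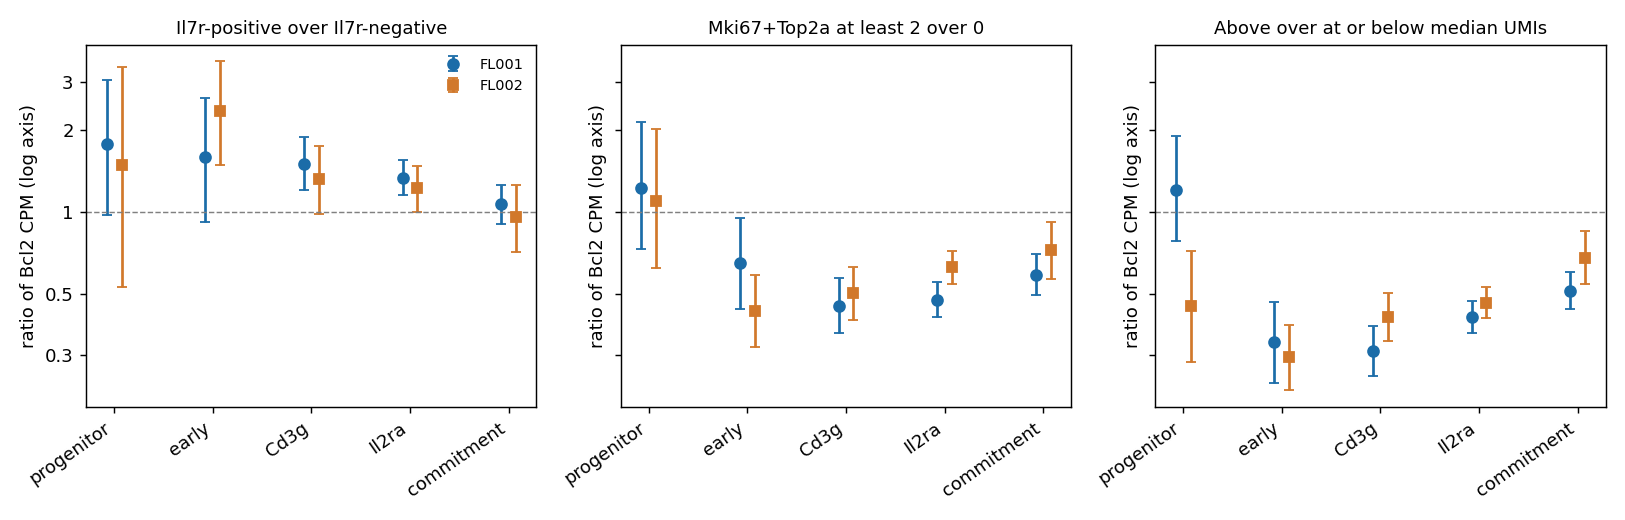
Ratio of *Bcl2* CPM between sets of cells inside each gate (log axis, dashed line at 1), with 95% intervals, for FL001 (circles) and FL002 (squares): cells with an *Il7r* UMI over cells without, cells with at least 2 UMIs of *Mki67*+*Top2a* over cells with none, and cells above their gate's median depth over the rest. The *Il7r* ratio goes from 1.51 and 1.32 in the Cd3g gate to 1.07 and 0.956 in the commitment gate, and the depth ratio lies below 1 in each gate but the progenitor gate of FL001.

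Among the other genes of these pathways, the lists of p53 targets and IL-7 signaling held more called genes than the death machinery itself. Of 18 tested genes of the execution list (caspases, their inhibitors and their mitochondrial activators), 1 was called higher and 1 lower in the commitment gate against the progenitor gate, the higher one being the executioner *Casp6* at 2.48-fold and 2.31-fold; 9.83% of all genes were called higher and 9.26% lower in this comparison. Of 7 further Bcl2 family genes tested, *Bcl2l14* was higher, at 5.30-fold (3.67 to 7.85) and 5.59-fold (3.77 to 8.49), while *Bok*, a Bax-like effector, and *Bnip3*, a hypoxia-linked mitophagy receptor, were lower. *Bok* gave 57 UMIs in the progenitor gate of FL001 and 70 in that of FL002, and 1 UMI in each commitment gate, while *Bnip3* was at 0.236 (0.137 to 0.386) and 0.184 (0.0924 to 0.334) times.

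Of 10 genes tested from the p53 list, 5 were called higher and 1 lower, beside 9.83% and 9.26% of all genes. *Zmat3* was 8.29-fold and 4.33-fold higher, *Trp53inp1* 7.41-fold and 8.02-fold, and *Cdkn1a*, the cell cycle inhibitor p21, 3.82-fold and 4.98-fold, beside the member *Bax* at 2.09-fold and 1.69-fold. *Sesn1* was lower, at 0.420 and 0.523 times, and *Trp53* itself was at 310 CPM in the progenitor gate and 330 CPM in the commitment gate of FL001, and at 320 and 329 CPM in FL002. *Ccng1* and *Mdm2* were called as well, but without the cells of other lineages, or with at most 5% mitochondrial UMIs, only *Zmat3*, *Trp53inp1* and *Cdkn1a* were called. Genes of the early response list, which cell handling is known to raise, had 1751 and 2941 CPM in the progenitor gate and 534 and 832 CPM in the commitment gate, with 6 of 8 genes called lower and 0 higher, *Hspa1a*, *Fos* and *Jun* most of all; their part in the differences of the members and the p53 list was not tested.

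Of 13 genes tested from the IL-7 list, 7 were called higher and 2 lower, beside the same 9.83% and 9.26%. The feedback inhibitors *Socs1*, at 22.8-fold and 23.9-fold, and *Socs2*, at 5.75-fold and 6.79-fold, and *Il7r* itself, at 4.01-fold and 3.62-fold, were the most different. *Jak3*, the kinase that pairs with the common gamma chain, was at 0.178 and 0.286 times, and *Foxo3*, a transcription factor that acts on *Bcl2l11*, at 0.504 and 0.528 times. None of the 6 cell cycle genes was called in either direction.

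**Figure D4:**
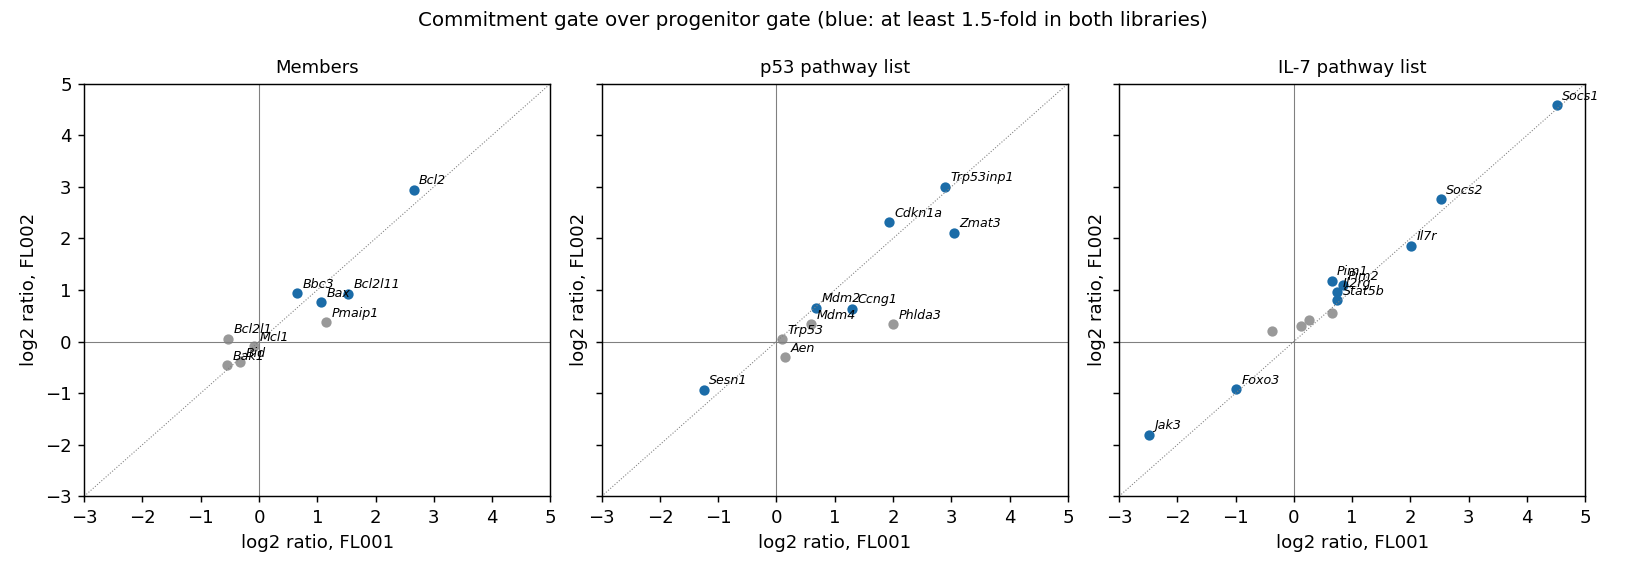
Log2 ratio of CPM in the commitment gate over the progenitor gate in FL001 (horizontal) and FL002 (vertical), 1 point per gene tested, for the Bcl2 family members, the p53 list and the IL-7 list. Blue points were at least 1.5-fold different in the same direction in both libraries, the dotted line marks equal ratios, and in the IL-7 panel only blue points carry names; *Bcl2* is the member farthest from 0, and *Socs1* the gene farthest from 0 in the lists shown.

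Genes whose level followed a member most closely over the 10 gate and library values were named by Pearson r of log2(CPM+1), among 7809 genes. The points share cells and libraries, so r is a description. For *Bcl2* they were *Uck2* (r = 0.993), *P2ry10* (0.992) and *Rtn4rl1* (0.991), and for *Bax* they were *Napsa* (0.984), *Ptprcap* (0.984) and *4930427A07Rik* (0.983). *Bcl2l11* was nearest to *Ifi204* (0.980), *Bbc3* to *Snn* (0.969), *Bak1* to *Slc16a6* (0.972), *Bid* to *Taf6* (0.973), *Bcl2l1* to *Men1* (0.924) and *Mcl1* to *Hsbp1* (0.890).

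Between the libraries, *Bcl2* was lower in FL002 in every gate, at 0.652 to 0.826 times FL001, and *Bak1* likewise, at 0.691 to 0.823 times. *Mcl1* was at 0.897 to 1.14 times. The libraries also differ in depth, and the labels name no difference between them.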

How the data were processed

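Raw UMI counts per gene and barcode were used as deposited. The authors prepared libraries with 10X Chromium and sequenced them on an Illumina instrument; the submitters' processing notes name the mm9 build, and the counting settings are not given in the sources used here. The files hold 28692 genes and 737280 barcodes per library, with 16320118 UMIs in FL001 and 22651783 in FL002.

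Cells, gates and the 10 genes were taken as stated in the report; the members, gates and gene lists were chosen with earlier results of these data known. UMIs were summed over the cells of a gate and divided by the gate's total (CPM), with exact Poisson intervals for levels, exact conditional binomial intervals for ratios and exact binomial intervals for shares. UMIs were not otherwise corrected for free RNA, and doublets were not removed; an alternative left out the 5% of cells with the highest Scrublet score (89 and 205 cells). Named genes were all members, up to 3 genes of each list with the largest ratio in each direction, and the 3 genes most like each member; *Ccng1*, *Mdm2* and *Trp53* were named after their values were seen, and some genes that the rule selects are not reported here. The splits by depth, and by cell cycle genes within depth, were also chosen after seeing the data. Of the gene identifiers, 28339 matched GENCODE M21, where genes on the same strand overlap *Bcl2*, *Bcl2a1b*, *Bax* and *Bid*. Python 3.11.15, NumPy 2.4.6, SciPy 1.17.1, pandas 2.3.3 and Scanpy 1.11.5 were used, and the scripts were tested on simulated data.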

Additional observations from a re-analysis of the deposited data

How the results depend on the processing

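*Bcl2* in the commitment gate stayed 5.64-fold to 8.11-fold above the progenitor gate in FL001 and 7.20-fold to 9.18-fold in FL002 over 8 alternatives; the 8.11-fold, with each cell given equal weight, lay outside the counting interval. The commitment to progenitor ratio of the survival to death ratio became 2.35 and 3.12 without *Mcl1* and 2.34 and 2.30 without *Bax*, and lay above 1 under all 11 alternatives in both libraries (lowest 1.28 and 1.54).

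Members called higher in the early gate numbered 1 with at least 3000 UMIs, 1 with at most 5% mitochondrial UMIs, 1 without other lineages, and 0 with each cell in 1 gate, a fold of 2 or a minimum of 50 CPM. A fold of 2 left 1 member, *Bcl2*, in each of the Cd3g, Il2ra and commitment gates, and the minimum of 50 CPM, which leaves out the scarce members, left 2 (*Bcl2* and *Bax*) in the Il2ra and commitment gates. Thinning to 1500 UMIs gave 4 members higher in the Cd3g gate and 1 lower, *Bcl2l1*, in the commitment gate. In the p53 list 3 to 6 genes were called higher over the alternatives, except 1 at the minimum of 50 CPM. This list's alternatives were chosen after seeing the data. The share of all genes called was not computed under these alternatives, so their counts are not read against a background.

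The *Bcl2* ratio of *Il7r* cells was not stable. Over the alternatives 16 of its values moved outside their counting interval, 1 reversed and 83 stayed. Values of the survival to death ratio moved in 43 cases and stayed in 89. With *Il7r* read from thinned UMIs, the *Bcl2* ratio in FL001 was 2.19 (Cd3g gate) and 1.46 (commitment gate). In FL002 it was 2.25 (Cd3g gate) and 1.57 (Il2ra gate). With at least 3 *Il7r* UMIs, met by 1 to 11 cells per gate, it was 5.78 and 3.03 in the Cd3g gate, 1.98 and 1.54 in the Il2ra gate and 0.476 in the commitment gate of FL002, the last from 1 *Bcl2* UMI. Thinning the *Bcl2* UMIs gave 1.54 in the Il2ra gate of FL002, and 0 in the progenitor gate of FL001, where no *Bcl2* UMI was left in the 31 *Il7r* cells; the cause of the other shifts was not tested. Shares of cells with a *Bcl2* UMI depend on depth by construction: unthinned they were 18.0% and 67.8% in the progenitor and commitment gates of FL001 and 9.94% and 43.9% in FL002, and another seed gave 6.31% in the progenitor gate of FL001. No paired analysis was possible because each library is the only one of its group. Counting error limits *Bcl2l11*, *Bbc3* and *Pmaip1*, with 19 to 163 UMIs per gate.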
